A study of Mus musculus with 6 samples.

Results

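The Ly6 surface antigen genes measured in the iT cell table were Ly6c1, Ly6c2, Ly6a, Ly6e, Ly6d, Ly6k and Ly6i, which are 7 of its 23420 rows. They were selected on earlier results of the same table, in which Ly6c2 was among the genes of largest difference between T cells positive for CD4 alone (CD4SP) and those positive for CD8 alone (CD8SP). The difference between these populations is therefore given for the members as a description, with no p, and nothing is read from the criterion used for all genes where it is applied to them. The sum of Ly6c1 and Ly6c2 is also given, because the sequences of these genes are nearly identical.

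Ly6 proteins are small proteins held on the outer face of the plasma membrane by a glycosylphosphatidylinositol (GPI) lipid anchor, and they share a cysteine-rich fold with the urokinase receptor (the LY6/uPAR fold). In mouse T cells several of them are used as surface markers of activation and memory, and several respond to interferons. Ly6C, the antigen made from Ly6c1 and Ly6c2, marks memory and effector CD8 T cells and, outside the T lineage, a class of monocytes. Ly6a encodes Sca-1, the antigen also used to sort blood stem cells, and Ly6e encodes the thymic shared antigen TSA-1.

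Polyadenylated RNA was measured in induced T (iT) cells sorted from the spleen. There were 3 CD4SP and 3 CD8SP libraries, each of 1000 cells. The cells descended from iR9 embryonic stem cells (C57BL/6 background, CD45.2), which carry a doxycycline-inducible cassette of Runx1 and Hoxa9 in the Rosa26 locus. Blood progenitors grown from iR9 cells were transplanted into irradiated adult B-NDG mice (CD45.1), which have the NOD background, the scid mutation of Prkdc and no functional Il2rg. Both populations share the cassette, the host and the tissue, and differ in the gate on CD4 or CD8. The study describes transplantation without doxycycline and, for another experiment, recipients fed with it, and the labels of these libraries give no treatment. The gate took donor (CD45.2+) cells and left out, among others, cells with Ter119 or CD11b, markers of erythroid and myeloid cells. The study calls the libraries biological replicates, but neither it nor the labels say whether each came from a separate mouse, so the spread between replicates, and every adjusted p below, may be partly or wholly technical. B-NDG hosts lack T, B and NK cells of their own.

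Levels are given in TPM, a measure of transcript abundance that corrects for gene length and scales each library to a common total. Different genes can therefore be set side by side only roughly, since cDNA amplification and the division of shared reads were not corrected for here. The scaling removes the read depth, which is unknown here, so no counting interval is given and a value of 0 is described only as listed at 0. Genes at 1 TPM or more numbered 10329 to 10649 in the CD4SP and 9971 to 10149 in the CD8SP libraries. Ribosomal protein genes took 24.1% to 28.8% of all TPM in CD4SP and 32.2% to 36.0% in CD8SP libraries. The median of all 10476 tested genes lay 0.28 (log2) higher in CD4SP, against which every difference below stands. CD8SP replicates 1 and 2 were closer to each other (median absolute log2 difference 0.11 over tested genes) than any other replicate pair (0.23 to 0.37). Averaging them as 1 library left the log2 difference of the Ly6c sum at -3.85 (from -3.88) and that of Ly6a at 1.29.

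The labelled populations matched their defining markers. In CD4SP replicates 1 to 3, Cd4, the MHC class II co-receptor, had levels of 331, 281 and 279 TPM, and no CD8SP library exceeded 0.104 TPM. Cd8a, a chain of the MHC class I co-receptor, had levels of 1147, 1161 and 1038 TPM in CD8SP and 2.93, 0.319 and 2.20 TPM in CD4SP libraries. The T cell receptor component Cd3d was at 979 TPM or more in every library. Cd3g lay between 713 and 1111 TPM and Cd3e between 34.6 and 67.5 TPM, so components of the same receptor differed widely in TPM.

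Ly6c1 and Ly6c2 differed at 9 of 396 coding bases, an identity of 97.73%. The first 300 coding bases, printed here because the members most alike in sequence had opposite orders between the populations, hold 7 of those 9 differences. They are read 5′ to 3′ from the start codon in the GENCODE M21 transcripts (GRCm38), with differing bases in capitals. Ly6c1 lies on the minus strand at chr15:75044018-75048830 and Ly6c2 on the minus strand at chr15:75108158-75111970, and both are protein coding with 3 coding exons.
Ly6c1: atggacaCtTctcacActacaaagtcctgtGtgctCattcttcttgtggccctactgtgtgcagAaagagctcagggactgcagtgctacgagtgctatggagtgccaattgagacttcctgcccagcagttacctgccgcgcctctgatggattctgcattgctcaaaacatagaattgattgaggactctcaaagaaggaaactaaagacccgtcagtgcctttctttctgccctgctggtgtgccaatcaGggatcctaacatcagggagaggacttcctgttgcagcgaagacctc
Ly6c2: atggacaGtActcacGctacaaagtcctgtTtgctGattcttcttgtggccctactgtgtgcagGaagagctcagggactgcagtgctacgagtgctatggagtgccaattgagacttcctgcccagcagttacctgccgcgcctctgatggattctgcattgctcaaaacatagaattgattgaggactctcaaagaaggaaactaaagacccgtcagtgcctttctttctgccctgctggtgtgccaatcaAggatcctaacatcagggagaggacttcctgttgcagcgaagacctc

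Counted from 1 at the A of the start codon, with the base of Ly6c1 first, the differences were C8G, T10A, A16G, G31T, C36G, A65G, G254A, T327C and G376A. The longest identical stretch within the coding sequence was 188 bases. Of all 75-base stretches of the annotated transcript, 21.3% of those of Ly6c1 and 21.9% of those of Ly6c2 occurred in the other gene. The shares depended on the length chosen, at 31.7% and 32.6% for 50 bases and 15.3% and 15.8% for 100 bases. How reads of such stretches were divided between the pair was not given in the sources used here, so the single values of Ly6c1 and Ly6c2 carry that uncertainty. Their sum is free of it only if each shared read was counted once, which was not given either. A further 15 of the 770 stretches of 75 bases of Ly6c1 occurred in annotated transcripts of Ly6a, and this sharing touches both Ly6c1 and the sum. For 50 bases it was 40 of 795 stretches, and for 100 bases 0 of 745.

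The other members were less alike. Coding identity was 81.7% to 82.0% between Ly6a and the Ly6c pair and 86.4% between Ly6a and Ly6i. Ly6e shared 52.6% of alignment columns with Ly6a. All 75-base stretches of Ly6e and Ly6d and 99.2% of those of Ly6a were found in no other annotated gene. For Ly6k the share was 79.5%, the rest being shared with the antisense gene Gm17189.

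Ly6c2 was the most abundant family member in CD8SP and 1 of the minor members in CD4SP iT cells. Its level was 4343, 4303 and 3862 TPM in CD8SP replicates 1 to 3 and 172, 96.0 and 124 TPM in CD4SP replicates 1 to 3. All CD8SP libraries lay far above all CD4SP libraries, with no overlap. The means were 4169 ± 267 (SD, n = 3) and 131 ± 38.5 TPM (SD, n = 3), a 31.9-fold higher level in CD8SP and a log2 difference (CD4SP minus CD8SP, of log2(TPM + 1)) of -5.02. Among all rows Ly6c2 held positions 46, 46 and 55 by TPM in the CD8SP libraries and positions between 856 and 1382 in CD4SP.

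Ly6c1, its near copy, had the opposite order. Its level was 186, 148 and 146 TPM in CD4SP replicates 1 to 3 and 62.3, 61.1 and 71.3 TPM in CD8SP replicates 1 to 3. Every CD4SP library lay above every CD8SP library, and CD4SP replicate 1 was highest. The means were 160 ± 22.4 (SD, n = 3) and 64.9 ± 5.56 TPM (SD, n = 3), a 2.46-fold higher level in CD4SP and a log2 difference of 1.28.

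The sum of Ly6c1 and Ly6c2 followed Ly6c2. It was 358, 243 and 270.1 TPM in CD4SP replicates 1 to 3 and 4405, 4364 and 3934 TPM in CD8SP replicates 1 to 3. The groups were wide apart, at 290.4 ± 59.8 (SD, n = 3) against 4234 ± 261 TPM (SD, n = 3), which is 14.6-fold higher in CD8SP (log2 difference -3.88). Ly6c2 made up 48.1%, 39.4% and 45.9% of the sum in CD4SP and 98.6%, 98.6% and 98.2% in CD8SP replicates 1 to 3. The pair was thus close to evenly divided in CD4SP libraries and almost wholly Ly6c2 in CD8SP libraries.

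Ly6c2 transcripts were measurable in every CD4SP library. Their level there was 2.30% to 4.13% of the CD8SP mean. For Cd8b1 and Cd8a, the co-receptor genes that the CD4SP gate selects against, the same share was 1.05% to 1.55% and 0.0286% to 0.263%. Within CD4SP, replicate 1 had the highest and replicate 2 the lowest value of both Ly6c2 and Cd8a. Cd8b1 was also highest in replicate 1, at 36.0 TPM, but lowest in replicate 3, at 24.3 TPM beside 24.6 TPM in replicate 2. The part of CD8 cells in the Ly6c2 level of CD4SP libraries was not tested. In bulk libraries such as these, fewer cells with a transcript and less transcript per cell cannot be told apart.

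**Figure D1:**
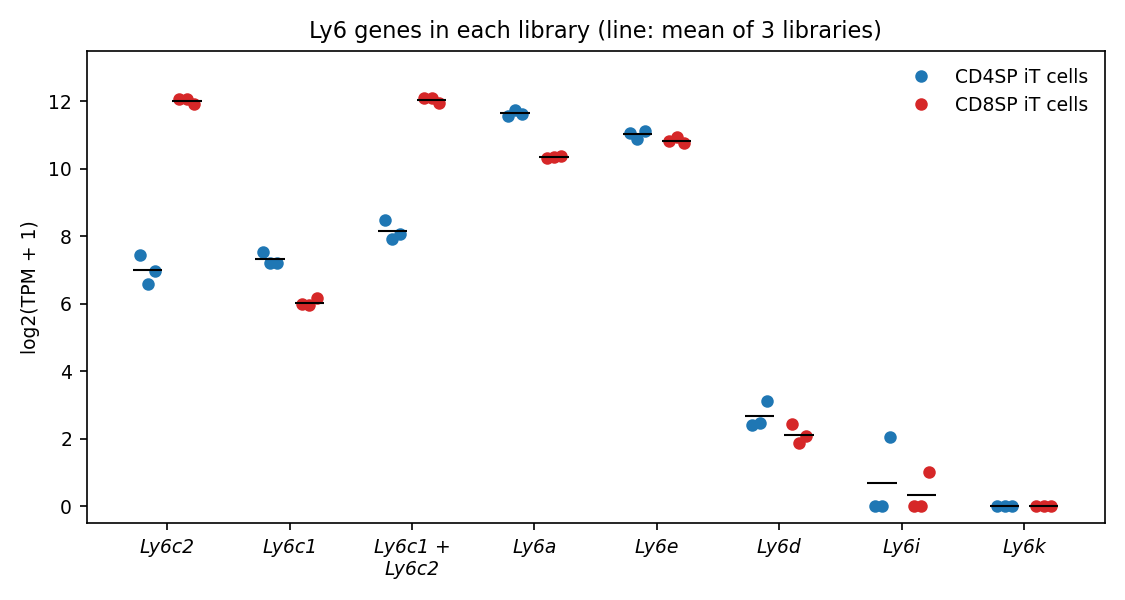
Level of each Ly6 gene, and of Ly6c1 and Ly6c2 summed, in each library on a log2(TPM + 1) axis, with CD4SP iT cells in blue, CD8SP iT cells in red and the mean of 3 libraries as a line. The populations stood apart for Ly6c2, Ly6c1, their sum and Ly6a, overlapped for Ly6e, Ly6d and Ly6i, and Ly6k was listed at 0 throughout.

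Ly6a (Sca-1), on the minus strand at chr15:74994877-74998031, was the most abundant member in CD4SP iT cells. Its level was 3045, 3459 and 3156 TPM in CD4SP replicates 1 to 3 and 1291, 1299 and 1339 TPM in CD8SP replicates 1 to 3. The populations did not overlap, and the highest CD8SP library was 1.04-fold the lowest. The means were 3220 ± 214 (SD, n = 3) and 1310 ± 25.6 TPM (SD, n = 3), a 2.46-fold higher level in CD4SP with a log2 difference of 1.29. Ly6a took positions 51 to 55 among all rows in CD4SP and 118 to 122 in CD8SP libraries, so it was among the abundant transcripts of both.

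Ly6e (TSA-1), on the plus strand at chr15:74955051-74959905, is a marker of immature thymocytes that mature T cells also express on activation. Its level was 2150, 1909 and 2232 TPM in CD4SP replicates 1 to 3 and 1818, 1957 and 1727 TPM in CD8SP replicates 1 to 3. The groups overlapped, since CD4SP replicate 2 was below CD8SP replicate 2. The means were 2097 ± 168 (SD, n = 3) and 1834 ± 116 TPM (SD, n = 3), and the log2 difference of 0.19 was smaller than the median of all tested genes. It stood at position 75 to 103 in all 6 libraries.

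The remaining 3 members were near or at 0. Ly6d, the ThB antigen of B-lineage cells and of a thymocyte fraction, had 4.36, 4.58 and 7.73 TPM in the CD4SP libraries, against 4.40, 2.64 and 3.24 TPM in the CD8SP libraries, and the groups overlapped. Ly6i, a close relative of Ly6a, was listed at 0 in replicates 1 and 2 of both populations and at 3.16 and 1.01 TPM in CD4SP replicate 3 and CD8SP replicate 3. Ly6k, known from the male germ line, was listed at 0 in all 6 libraries. No fold is given for Ly6i and Ly6k because they are listed at 0 in libraries of both groups.

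The B cell markers Ms4a1 and Pax5 were listed at 0 in all libraries, beside the low Ly6d values.

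Of the 7 members, 5 passed the filter on low values (1 TPM or more in 3 or more libraries), and 3 met the criterion used for all genes, an adjusted p under 0.05 with a difference over 2-fold. These were Ly6a and Ly6c1, higher in CD4SP, and Ly6c2, higher in CD8SP. Over all tested genes 9.73% met the criterion, 7.92% being higher in CD4SP and 1.8% higher in CD8SP (830 and 189 genes). As the members were chosen from this difference, nothing is read from their count. After median-of-ratios rescaling, which brings the median of all tested genes to 0.00, Ly6c2 alone of the members met it, and over all genes 489 were higher in CD4SP and 300 in CD8SP. The log2 difference was then -5.33 for Ly6c2, 0.99 for Ly6a and 0.98 for Ly6c1, and that of Ly6e changed sign to -0.12.

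**Figure D2:**
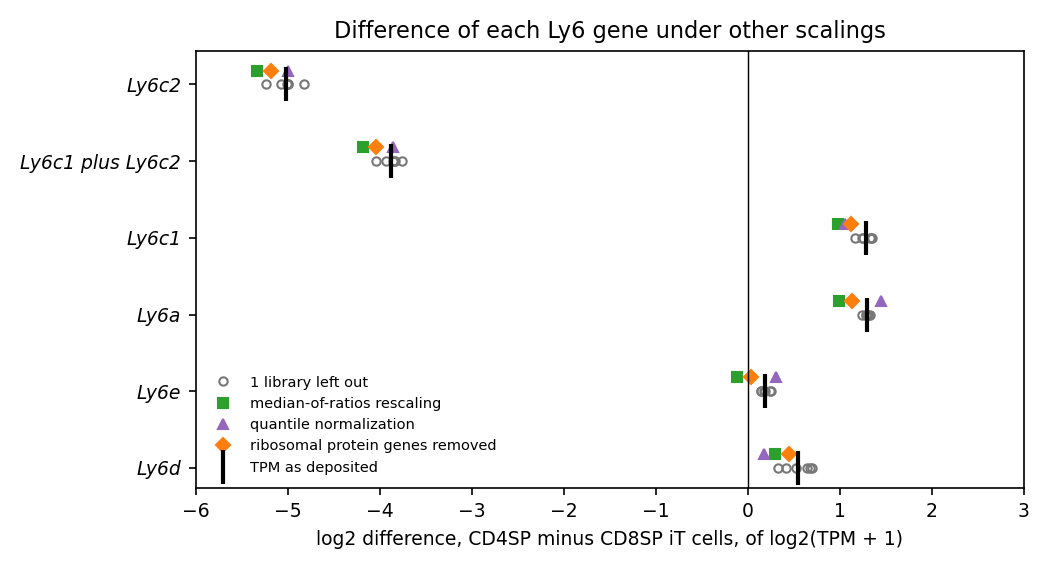
Log2 difference (CD4SP minus CD8SP iT cells) of 5 Ly6 genes and of the Ly6c sum, as deposited (black bar), after 3 other scalings (coloured marks) and with each library left out (open circles). Under the settings drawn Ly6c2 lay between -5.33 and -4.82 and Ly6a and Ly6c1 between 0.98 and 1.45, while Ly6e crossed 0.

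The order of the members differed between the populations. In CD4SP it ran Ly6a, Ly6e, Ly6c1, Ly6c2, Ly6d, Ly6i and Ly6k, with the ranges of neighbours apart except for Ly6c1 and Ly6c2, and Ly6i and Ly6k. Within each CD4SP library Ly6c1 was nevertheless above Ly6c2, the ratio of Ly6c2 to Ly6c1 being 0.928, 0.651 and 0.850 in replicates 1 to 3. In CD8SP it ran Ly6c2, Ly6e, Ly6a, Ly6c1, Ly6d, Ly6i and Ly6k, and only the ranges of Ly6i and Ly6k overlapped. The ratio of Ly6a to Ly6e was 1.42, 1.81 and 1.41 in CD4SP and 0.710, 0.664 and 0.776 in CD8SP replicates 1 to 3. This ratio is taken within a library and does not depend on its scaling factor, and it was above 1 in every CD4SP and below 1 in every CD8SP library.

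Together the 7 genes made up 0.557%, 0.563% and 0.568% of library TPM in CD4SP and 0.753%, 0.764% and 0.702% in CD8SP replicates 1 to 3. Ly6a contributed 54.8% to 61.6% of the family total in CD4SP and 17.0% to 19.1% in CD8SP. Ly6c2 contributed 1.71% to 3.10% in CD4SP and 55.1% to 57.8% in CD8SP. The family total was 1.32-fold higher in CD8SP, at 7382 ± 331 against 5613 ± 55.8 TPM (SD, n = 3 each), a log2 difference of -0.39. It is given as deposited only, a scale on which the median of all tested genes lay 0.28 higher in CD4SP. As the members were chosen with the difference of Ly6c2 known, nothing is read from the change in makeup.

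**Figure D3:**
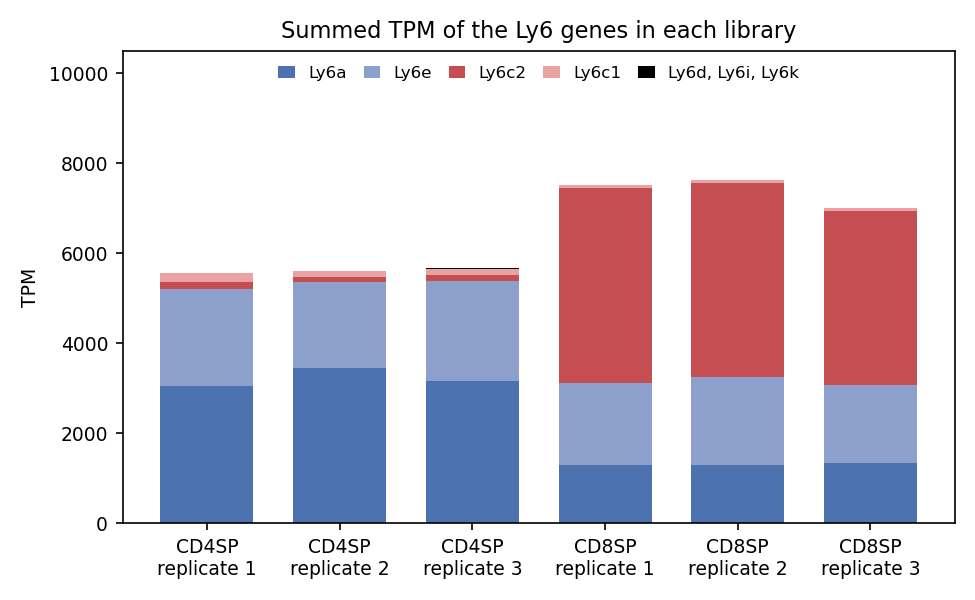
Summed TPM of the 7 Ly6 genes in each library, stacked by gene on a linear axis from 0. Ly6a and Ly6e filled most of each CD4SP bar, Ly6c2 filled 55.1% or more of each CD8SP bar, and Ly6d, Ly6i and Ly6k together were too low to be seen except as a thin line.

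The 7 genes lie together on chromosome 15, over 349.9 kb from 74762056 to 75111970 (GRCm38). Ly6d is at chr15:74762056-74763620, Ly6k at chr15:74796874-74799986 and Ly6i at chr15:74979534-74983430, all on the minus strand. GENCODE M21 places 23 genes in the span, of which 16 are not members. Of those 16, 5 were rows of the table and none reached 1 TPM, the highest value being 0.176 TPM for 2010109I03Rik. Ly6i, which was listed at 0 in 4 libraries, lies between the abundant Ly6e and Ly6a, and the scarce Ly6d and Ly6k lie at the far end from Ly6c2. The neighbours with opposite patterns, Ly6c1 and Ly6c2, start 63.1 kb apart.

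**Figure D4:**
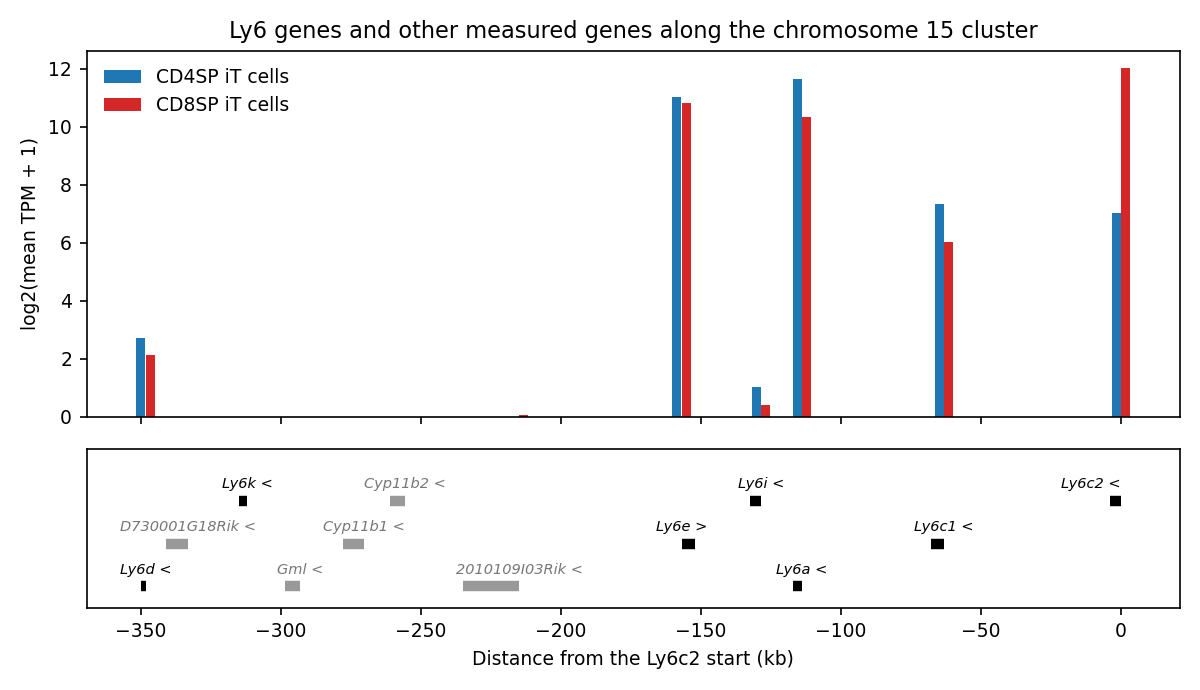
Mean TPM of each measured gene of the cluster, as log2(mean TPM + 1), against the distance of its start from that of Ly6c2 in kb (top; CD4SP blue, CD8SP red), and the position and strand of each gene (bottom; Ly6 genes black, others grey). No measured gene other than the Ly6 genes reached 1 TPM, and among the Ly6 genes the red bar was above the blue one for Ly6c2 only.

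The sequences before the starts of Ly6c1 and Ly6c2 are shown because these genes had opposite patterns. They are the 250 bases before each start in RefSeq (GRCm38.p6, minus strand), at chr15:75048838-75049087 for Ly6c1 and chr15:75111972-75112221 for Ly6c2, with matches to the searched motifs in capitals. Ly6a, Ly6e, Ly6d, Ly6k and Ly6i had no entry in the table of promoters used.
Ly6c1: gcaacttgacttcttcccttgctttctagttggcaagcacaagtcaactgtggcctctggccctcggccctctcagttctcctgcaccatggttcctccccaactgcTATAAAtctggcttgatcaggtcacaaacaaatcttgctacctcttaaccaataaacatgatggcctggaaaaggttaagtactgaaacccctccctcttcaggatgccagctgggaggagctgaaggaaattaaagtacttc
Ly6c2: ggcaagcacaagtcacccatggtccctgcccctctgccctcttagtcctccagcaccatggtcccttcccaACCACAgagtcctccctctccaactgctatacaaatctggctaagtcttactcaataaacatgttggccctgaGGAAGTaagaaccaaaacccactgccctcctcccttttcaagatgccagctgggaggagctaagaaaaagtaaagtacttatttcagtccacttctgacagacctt

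The search ran over these bases and the first 50 after each start, on both strands, for 6 motifs in exact letters. The TATA box was searched as TATAAA, which occurred before Ly6c1 at -143 and not before Ly6c2, and 13.6% of 32851 promoters of the same length held it. The site of RUNX factors was searched as TGTGGT, which occurred before Ly6c2 at -179, on the opposite strand to the one printed, and 16.8% of promoters held it. The site of ETS factors was searched as GGAAGT, which occurred in the Ly6c2 window at -106 and again at 28 after the start, and 23.8% of promoters held it. The GAS element, bound by STAT dimers, was searched as TTCNNNGAA and the core of the ISRE, bound by interferon-activated factors, as GAAANNGAA. The site of T-box factors was searched as TCACACC. These last 3 were in neither window, and 8.30%, 8.56% and 3.98% of promoters held them. None of these matches overlapped another. Aligned end to end, the 2 windows were identical at 208 of 266 paired bases (78.2%), with 68 further columns of gaps.

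Genes most like each member were taken as the 3 with the highest Pearson r of log2(TPM + 1) over the 6 libraries. This is a description in which all points share 2 populations, so a difference between these alone can give a high r. The 3 genes were also picked as the highest of all tested genes over only 6 points. Values of r near 1 can arise from that choice alone, and no p is given. For Ly6c2 they were Tm6sf1, Cd8a and Gzmk (r = 0.9997, 0.9990 and 0.9988), with Gzmk, a granzyme of cytotoxic T cells, at 93.1 TPM in CD4SP and 269 TPM in CD8SP on average. For the Ly6c sum they were Cd8b1, Tm6sf1 and Nkg7 (r = 0.9993, 0.9992 and 0.9991). Nkg7, a cytotoxic granule protein, had means of 1877 (CD4SP) and 6696 TPM (CD8SP). For Ly6a they were Tsc22d2, Gm14718 and Fam3c (r = 0.9997, 0.9995 and 0.9990). For Ly6c1 they were Acp2, Nid2 and Itga7 (r = 0.9992, 0.9971 and 0.9965), for Ly6e Gprasp1, Actn4 and Tpp2 (r = 0.9978, 0.9946 and 0.9916), and for Ly6d Cstf2t, Igll1 and Atf7ip (r = 0.9917, 0.9912 and 0.9894).

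Other genes of the LY6/uPAR fold were mostly listed at 0. Of a list of 41 such genes outside the 7 members, 30 were rows of the table, 23 of these were listed at 0 in every library and only Lypd6b and Ly6g5b passed the filter. Lypd6b, a relative of prototoxins that modulate nicotinic receptors, was higher in CD8SP at 10.5 ± 1.40 against 4.84 ± 2.54 TPM (SD, n = 3 each), with a log2 difference of -1.06 ± 0.32 (SE) and a limma adjusted p of 0.0493. That call was lost under 11 of 16 alternative settings, among them leaving out CD4SP replicate 2 or 3 or any 1 CD8SP library (log2 difference -0.75 to -1.14), and its values are a description for that reason. Ly6g5b was at 45.8 ± 1.13 TPM in CD4SP and 31.6 ± 8.50 TPM in CD8SP (SD, n = 3 each; limma adjusted p = 0.0918). The LY6/uPAR transcripts of highest level in these cells were Ly6c2, Ly6a, Ly6e and Ly6c1.

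The enzymes that build and attach the GPI anchor, on which Ly6 proteins depend, were measured for 30 of 31 listed genes, and 26 passed the filter. Calls were made for 2 of them, both higher in CD4SP, beside 9.73% of all tested genes called. An unadjusted limma p under 0.05 was found for 9 of the 26, beside 3883 of all 10476 tested genes. The median log2 difference of the list was 0.24, beside 0.28 for all tested genes. Pigb, a mannosyltransferase of the anchor core, was at 6.02 ± 1.13 against 1.76 ± 0.263 TPM (CD4SP against CD8SP, SD, n = 3 each), with a log2 difference of 1.34 ± 0.24 (SE) and a limma adjusted p of 0.00681. The Pigb call was lost under quantile normalization (0.98). Tmem8, also called Pgap6, a phospholipase that acts on GPI-anchored proteins, was at 27.8 ± 6.24 against 13.1 ± 1.59 TPM (SD, n = 3 each), with a log2 difference of 1.02 ± 0.20 (SE) and a limma adjusted p of 0.0101. The Tmem8 call was lost when CD4SP replicate 1 (0.86), CD8SP replicate 2 (0.98) or CD8SP replicate 3 (0.97) was left out. It was also lost after median-of-ratios rescaling (0.73), quantile normalization (0.70) and removal of ribosomal protein genes (0.88). The most abundant genes of the list, Dpm2, Pigx and Dpm3, which encode subunits of mannosyltransferase complexes, had differences of 0.14, 0.59 and -0.35 and were not called.

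Other GPI-anchored proteins of T cells were measured for 14 of 16 listed genes, and 13 passed the filter, with a median log2 difference of 0.34 beside 0.28 for all tested genes. CD4SP was higher for 3 called genes and CD8SP for 1, beside 7.92% and 1.8% of all tested genes. Prnp, the prion protein, was at 8.43 ± 1.44 against 0.721 ± 0.276 TPM (CD4SP against CD8SP, SD, n = 3 each), with a log2 difference of 2.45 ± 0.26 (SE) and a limma adjusted p of 0.000542. Art2a-ps, of the ADP-ribosyltransferase family and named by its symbol as a pseudogene, had a difference of 1.86 ± 0.31 (SE; limma adjusted p = 0.00465). Nt5e, the CD73 ectonucleotidase that makes adenosine, was at 124 ± 28.7 against 52.5 ± 1.35 TPM (SD, n = 3 each), with a difference of 1.19 ± 0.18 (SE; limma adjusted p = 0.00327). After median-of-ratios rescaling (0.89) and quantile normalization (0.95) it was under the 2-fold limit. Cd160, a receptor of cytotoxic lymphocytes, was higher in CD8SP at 88.5 ± 23.9 against 22.9 ± 3.47 TPM (SD, n = 3 each), with a difference of -1.88 ± 0.22 (SE; limma adjusted p = 0.00107). Cd52, Thy1 and Cd48, the most abundant of the list, had differences of -0.16, -0.06 and 0.26 and were not called. Cd52 averaged 5794 TPM in CD4SP and 6411 TPM in CD8SP, above the most abundant Ly6 gene of each population.

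Interferon-induced genes were listed because Ly6a, Ly6e and the Ly6c genes are known to respond to interferons. Of 41 listed genes, 39 were rows of the table and 36 passed the filter, with a median log2 difference of 0.42 beside 0.28 for all tested genes. CD4SP was higher for 9 called genes and CD8SP for 1, beside 830 and 189 of all 10476 tested genes. After median-of-ratios rescaling the counts were 4 and 2, beside 489 and 300 of all tested genes, and the list's median was 0.12, beside 0.00. Iigp1, a GTPase of cell-autonomous immunity, was at 39.6 ± 1.77 against 4.38 ± 0.392 TPM (CD4SP against CD8SP, SD, n = 3 each), with a log2 difference of 2.92 ± 0.17 (SE) and a limma adjusted p of 2.37e-05. Ifi27l2a was at 1519 ± 387 against 360 ± 45.1 TPM (SD, n = 3 each), with a difference of 2.05 ± 0.18 (SE; limma adjusted p = 0.000231). Cmpk2, a mitochondrial nucleotide kinase, and Irgm2, an immunity-related GTPase, differed by 1.78 ± 0.33 and 1.62 ± 0.15 (SE; limma adjusted p = 0.0076 and 0.00026).

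Ifit3, an interferon-induced RNA-binding protein family member, was the listed gene called higher in CD8SP. Its level was 33.8, 36.7 and 32.0 TPM in CD8SP replicates 1 to 3 and 12.5, 6.78 and 21.9 TPM in CD4SP replicates 1 to 3. The log2 difference was -1.39 ± 0.34 (SE; limma adjusted p = 0.0247), and the call was lost when any 1 library other than CD4SP replicate 3 was left out (-0.997 to -1.43). It was also lost with CD8SP replicates 1 and 2 averaged (-1.37). The most abundant listed genes that were not called, Ifi47, Zbp1 and Phf11b, had differences of 0.15, 0.43 and -0.0082.

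**Figure D5:**
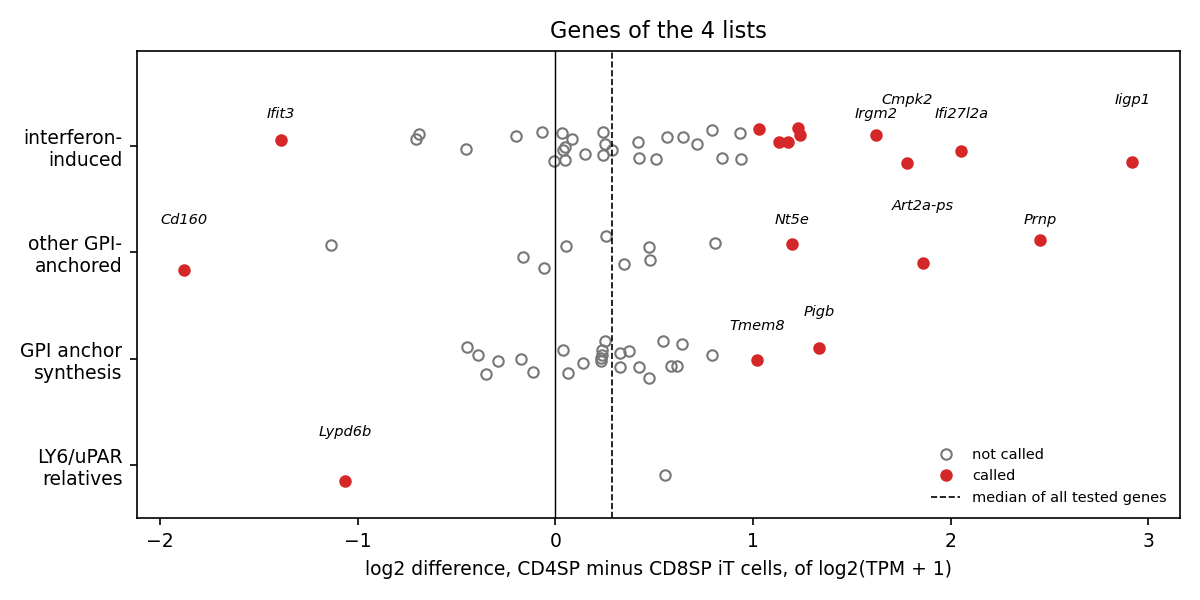
Log2 difference (CD4SP minus CD8SP iT cells) of each tested gene of the 4 lists, with called genes in red, others as open circles and the median of all 10476 tested genes (0.28) as a dashed line. Called genes lay on both sides of 0 in the interferon-induced and other GPI-anchored lists.

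Of 8 monocyte and neutrophil markers, S100a8, S100a9, Mpo and Elane were listed at 0 in every library. That list summed to between 17.1 and 31.3 TPM in CD4SP and between 3.64 and 9.09 TPM in CD8SP, nearly all of it Lyz2, so it was lower in the population with high Ly6c2. The 6 plasmacytoid dendritic cell markers, with Klk1 and Cox6a2 listed at 0, summed to at most 5.58 TPM in any library. The 6 endothelial markers, of a cell type known for Ly6c1 and Ly6a, summed to between 2.59 and 7.35 TPM in CD4SP and between 2.39 and 3.40 TPM in CD8SP, with Kdr, Emcn and Plvap listed at 0. For 5 NK cell markers the sum was between 4.45 and 10.6 TPM in CD4SP and between 44.7 and 52.1 TPM in CD8SP, with Ncr1, Klra8 and Klra4 listed at 0 and Klre1 carrying most of it. For 5 epithelial markers the sum was 9.98 TPM or more in CD4SP and 3.48 TPM or less in CD8SP, with Krt5 and Krt14 listed at 0. The NK cell sum moved with Ly6c2, and the Lyz2 and epithelial sums with Ly6a and Ly6c1, and their part in these differences was not tested.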

How the data were processed

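Polyadenylated RNA of sorted CD4SP and CD8SP iT cells was measured in 6 libraries, grouped by their titles. The authors amplified the cDNA of 1000 cells per library with a whole-transcriptome kit, aligned reads to mm10 with HISAT2 and deposited StringTie estimates in TPM per gene. TPM keeps no depth, and a transcript class that takes more of a library lowers all other values in it. How reads of similar genes were divided, whether strand was used and whether duplicates were removed were not given in the sources used here.

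Values were analysed as log2(TPM + 1), which understates differences of low genes. The 10476 of 23420 genes that reached 1 TPM in 3 or more libraries were fitted with limma 3.58.1 in R 4.3.3 (eBayes, trend on the mean), and p-values were adjusted over all of them by the Benjamini-Hochberg method. A gene was called at an adjusted p under 0.05 and a difference over 2-fold. The study used the same limits with a count-based test to compare iT cells with natural T cells, which is another test and another comparison. The limma fit and its calls were tested on simulated data, and the other steps were not. Coding sequences and positions came from GENCODE M21 (GRCm38, the assembly of mm10), promoters from RefSeq, and alignments from Biopython 1.88.

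The members, gene lists and most tests were chosen with earlier results of these data known. Besides the members, the genes named were, for each list, up to 4 called genes of largest difference in each direction and up to 3 others of highest level, and the 3 genes most like each member. Alternatives covered the pseudocount, the filter, 3 scalings, the variance model, weights on libraries, replicate number as a block term, CD8SP replicates 1 and 2 averaged, no fold limit and each library left out.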

Additional observations from a re-analysis of the deposited data

How the results depend on the processing

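The log2 difference of the summed Ly6c genes kept its direction throughout, at -4.19 after median-of-ratios rescaling and between -4.04 and -3.76 with each library left out. Scaling moved the median of all tested genes from 0.28 to 0.00 (median-of-ratios), -0.02 (quantile) and 0.14 (ribosomal protein genes removed). The genes called higher and lower in CD4SP, 830 and 189, became 489 and 300, 444 and 333, and 642 and 241 under these scalings. An adjusted p alone called 2183 genes, and leaving out 1 library 817 to 1202.

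The LY6/uPAR relatives had 0 calls in place of 1 with a pseudocount of 0.1, without the filter, without the trend, with library weights, with CD8SP replicates 1 and 2 averaged and with the replicate block, and 0 to 1 with 1 library left out. GPI anchor synthesis had 6 calls by adjusted p alone, 1 with a filter of 5 TPM, 1 after median-of-ratios rescaling, 0 with quantiles equalized, 1 without ribosomal protein genes and 1 to 2 with 1 library left out, in place of 2. Interferon-induced genes had 6 calls after median-of-ratios rescaling and 7 to 10 with 1 library left out, in place of 10. Other GPI-anchored genes had 3 to 6 calls under all settings. The cause of these changes was not tested.

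Among the genes named from the lists, the following, none of them called, changed sign. After median-of-ratios rescaling the differences were -0.051 (Cd48), -0.17 (Dpm2) and -0.16 (Ifi47). After quantile normalization they were 0.17 (Cd52), -0.074 (Dpm2) and 0.025 (Thy1). Without ribosomal protein genes they were -0.019 (Dpm2) and -0.0090 (Ifi47). Phf11b had 0.12 with library weights, and -0.12 to 0.14 with 1 library left out.

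The shared replicate numbers gave no evident pairing. Deviations of libraries with the same number correlated at 0.052, -0.017 and 0.089, and not every library correlated best with its own number. With the replicate block 997 genes were called in place of 1019, with 2 of GPI anchor synthesis, 4 of the other GPI-anchored and 10 of the interferon-induced genes.

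The unknown depth and 3 libraries per population limit what can be said of the low genes Ly6d, Ly6i and Ly6k.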
